A study of Mus musculus with 33 samples.

Results

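The miRNAs described here are 107 star-strand miRNAs of the mouse lung, out of 650 miRNAs on the array, of which 611 were of mouse. They are the entries whose array name ends in an asterisk, with 8 of the 115 such mouse names left out by name (miR-877*, miR-140*, miR-133a*, miR-199b* and members of the miR-297, miR-466, miR-467 and miR-669 families). The rule uses names only. For 97 of them the array also held the same name without the asterisk, here called the partner, and the other 10 carried a copy number or had no partner of exactly that name.

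A miRNA precursor folds into a hairpin, and Dicer cuts from it a short duplex with 1 strand from each arm. An Argonaute protein keeps 1 strand as the guide, which finds its targets mainly through the seed (bases 2 to 8), and the other, the passenger or star strand, is usually degraded. In the older nomenclature used on this array the asterisk was given to the arm found less often in sequencing, so a lower detection of star names is partly built into the names. Strand choice is known to favour the arm whose 5′ end is less tightly paired and often starts with U.

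Female C57BL/6 mice, a common inbred strain, received 0.162 mg of the carbon black nanoparticle Printex 90 or vehicle by instillation into the trachea, and lung tissue was taken 1, 3 or 28 days later. Both treatments used the vehicle, 0.9% NaCl in MilliQ water with 10% v/v acellular bronchoalveolar lavage fluid (BAL). Day 1 had 6 control and 6 exposed arrays, day 3 had 6 and 4, and day 28 had 6 and 5, each taken as 1 mouse. No source used here states an age. In whole lung, fewer cells of a type and less RNA per cell cannot be told apart.

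The sequences below show the star arms on which the results turn. They are from RefSeq (GRCm38.p6), 5′ to 3′, with the seed in capitals. Of 43 star miRNAs looked up by their current arm names, 42 had a sequence there; miR-30b* was the other. The first set holds the miR-30 stars, with the partner miR-30a for comparison.
miR-30a*: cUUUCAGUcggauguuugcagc
miR-30e*: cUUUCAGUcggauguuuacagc
miR-30c-2*: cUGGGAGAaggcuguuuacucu
miR-30a: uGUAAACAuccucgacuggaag
The stars of miR-30a and miR-30e differ at 1 base, G18A counted from the 5′ end of miR-30a*, and share their seed. The seed of these stars is not the one for which the family is known, which the partner shows. The next set holds the let-7 stars that were above background.
let-7b*: cUAUACAAccuacugccuuccc
let-7d*: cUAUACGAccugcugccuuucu
let-7f*: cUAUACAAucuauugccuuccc
let-7b: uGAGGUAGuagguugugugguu
From let-7b* to let-7f* the substitutions were C9U and C13U with the same seed, and from let-7b* to let-7d* they were A7G, A12G, C20U and C22U, the first of which lies in the seed. The stars of both miR-24 copies come next, the arms that differ between copies of 1 guide strand.
miR-24-1*: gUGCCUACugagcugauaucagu
miR-24-2*: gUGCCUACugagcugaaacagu
These were 2 edits apart with the same seed. The following pairs are shown with their partners, because here the star and not the partner was above background.
miR-17*: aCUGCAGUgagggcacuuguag
miR-17: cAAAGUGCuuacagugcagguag
miR-674*: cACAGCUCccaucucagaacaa
miR-674: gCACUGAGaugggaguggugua
miR-191*: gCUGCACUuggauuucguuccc
miR-191: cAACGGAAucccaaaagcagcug
The remaining stars that could be tested were those of miR-22, which has its own host RNA, and of miR-29b and miR-29c, a family known for targeting collagen and elastin transcripts.
miR-22*: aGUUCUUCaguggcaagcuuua
miR-29b*: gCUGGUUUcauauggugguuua
miR-29c*: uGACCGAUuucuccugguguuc
Between stars as alike as miR-30a* and miR-30e*, or miR-24-1* and miR-24-2*, the array probes may share RNA, so their values may not be independent. Whether they cross-hybridise was not tested.

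The stars lie where their precursors do. In GRCm38.p6, miR-30a* is at chr1:23272315-23272336 (plus strand) and miR-30c-2* at chr1:23291754-23291775 (plus strand) on the same chromosome, and miR-30e* is at chr4:120772618-120772639 (minus strand) within the span of Nfyc. let-7b* is at chr15:85707379-85707400 (plus strand) within Lncppara, while let-7d* at chr13:48536024-48536045 (minus strand) and let-7f* at chr13:48537833-48537854 (minus strand) are close neighbours. miR-24-1* is at chr13:63301213-63301235 (plus strand) within Aopep, and miR-24-2* at chr8:84208839-84208860 (plus strand). miR-17* is at chr14:115043721-115043742 (plus strand), miR-674* at chr2:117185186-117185207 (plus strand) and miR-191* at chr9:108568367-108568388 (plus strand) within Dalrd3. miR-22* is at chr11:75463734-75463755 (plus strand) within Mir22hg, miR-29b* at chr6:31063067-31063088 (minus strand) and miR-29c* at chr1:195037562-195037583 (plus strand) within A330023F24Rik. The table gives gene spans only, so exons and introns were not told apart.

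Facts of the whole array set the limits of what follows. Arrays differed in brightness: before scaling, the 75th percentile of signal, taken over 156 probes that every array detected, was 187 units on the dimmest and 1211 on the brightest. On the first principal component the 4 arrays of slide 1 lay from -5.92 to -2.73 and the other arrays from -1.66 to 1.99. Lung markers were present: the miR-200 family of epithelium, miR-126-3p of endothelium and miR-223, miR-142-3p and miR-142-5p of myeloid cells were above background on all 33 arrays. The other endothelial arm, miR-126-5p, was so on 23. The erythroid miRNAs miR-144, miR-451 and miR-486 were so on all 33. The brain miRNAs miR-124 and miR-9 were so on 0 and the liver miRNA miR-122 on 21. The muscle miRNAs miR-1, miR-133b and miR-133a were so on 31, 16 and 10. The part of blood and these other cells in any star signal was not tested. An array counted a miRNA as above background when most of its spots for any of its probes carried the scanner's flag for a signal well above background.

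Few star arms reached that level. Of the 107 stars, 16 were above background on at least 1 array, 91 on none and 3 on all 33: let-7d*, miR-30a* and miR-30e*. Of the 97 partners, 61 were above background on at least 1 array and 37 on all 33. In 10 pairs both arms were above background on at least 1 array, in 51 the partner only, in 3 the star only and in 33 neither. Even beside the 37 partners detected everywhere, the star was above background on all arrays in 3 pairs, on some in 7 and on none in 27. For comparison, among the 65 miRNAs that the array names by arm as 5p and 3p, both arms were above background on at least 1 array in 9, 1 arm in 21 and neither in 35.

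**Figure D1:**
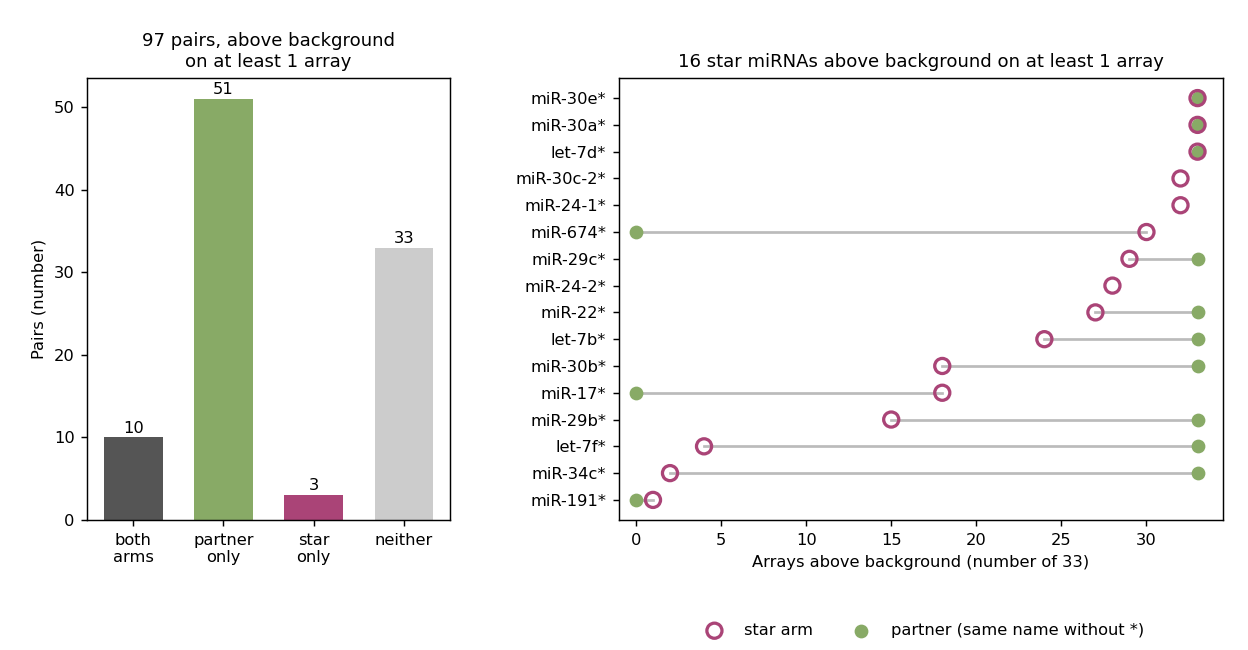
Left, the 97 star and partner pairs by which arm was above background on at least 1 array (10 both, 51 partner only, 3 star only, 33 neither). Right, for the 16 stars above background on at least 1 of 33 arrays, the number of arrays for the star (open circles) and the partner (filled circles, joined by a line, where the array held one); miR-674*, miR-17* and miR-191* have partners at 0 arrays.

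By family, the miR-30 stars were the best represented. Of 5 on the array, 4 were tested: miR-30a* and miR-30e* were above background on 33 arrays, miR-30c-2* on 32 and miR-30b* on 18, while miR-30c-1* was so on 0. Of 7 let-7 stars, let-7d* was above background on 33 arrays, let-7b* on 24 and let-7f* on 4. All 6 let-7 partners on the array were above background on all 33, and let-7a*, let-7g* and let-7i* on 0. Of the miR-29 stars, miR-29c* reached 29 arrays, miR-29b* 15 and miR-29a* 0, with all 3 partners at 33. In the clusters of miR-23, miR-24 and miR-27, miR-24-1* reached 32 arrays and miR-24-2* 28, while miR-27a* and miR-27b* were at 0 beside partners at 33. miR-22* reached 27 arrays.

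Other classes were nearly silent in their star arms. Of 7 stars of epithelial and ciliated cell miRNAs, only miR-34c* was above background, on 2 arrays, although all 7 partners were above background on at least 1 array and 5 on all. The stars of miR-200a, miR-200b and miR-200c, which keep epithelial cells from turning mesenchymal, were at 0 arrays beside partners at 33. Of 3 stars placed with inflammation miRNAs, 0 were above background. These were miR-21* and miR-146b* beside partners at 33 arrays, and miR-9* beside miR-9, also listed above as a brain miRNA, at 0. The 5 stars of the miR-15 and miR-16 family were at 0 as well. So were the 13 stars of the Dlk1-Dio3 cluster, an imprinted locus active mainly in the embryo and brain, of whose 13 partners 1 was above background on any array. Of 8 stars of the miR-17 cluster and its paralogs, only miR-17* was above background. The 3 stars of blood cell miRNAs were at 0, and of 11 stars of stromal cell miRNAs, the miR-29 stars among them, only miR-29b* and miR-29c* were not. The 41 stars in no class included 3 above background, miR-22*, miR-191* and miR-674*.

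In 3 pairs the star and not the partner was above background. The arms are read by different probes, so this is a difference in detection and not in amount. Whether the probes of these partners can report their arm was not tested. miR-674* was above background on 30 arrays and miR-674 on 0, miR-17* on 18 and miR-17 on 0, and miR-191* on 1 and miR-191 on 0. miR-17 belongs to a proliferation-linked cluster. Its scaled signal was at the floor of 1 on all 33 arrays, whereas miR-20a, which has the same seed and differs by C1U and C12U from miR-17, was above background on 33. The stars of miR-20a, miR-93 and miR-106b, relatives of miR-17, were above background on 0 arrays. miR-674 had median scaled signals of 1 to 2.66 units over the groups, below the lowest signal above background on any array, 5.76 units. miR-191 was at the floor on all arrays of control day 28 and exposed day 3. It was so on 3 of 6 control and 3 of 6 exposed arrays of day 1, 5 of 6 controls of day 3 and 4 of 5 exposed arrays of day 28. Its highest scaled signal, 10.1 units on a control array of day 1, exceeded 5.76 units but was not above background on that array. Under the scanner's weaker gene-detected flag, added after the data were seen, miR-674* was detected on 32 arrays, miR-17* on 30 and miR-191* on 23, and their partners on 1, 0 and 0.

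Over the whole set that flag gave 26 stars on at least 1 array and 5 on all 33, against 65 partners on at least 1. let-7f* was then detected on 27 arrays, miR-483* and miR-34c* on 12 each, let-7a* on 0 and miR-21* on 0.

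The sequences of the arms were compared as a description. For the 27 pairs with a partner on all arrays and a star on none, the partner started with U in 22 and the star in 3. For the 12 pairs with a tested star and both sequences, the partner started with U in 8 and the star in 1. In this set miR-24-1*, miR-24-2* and miR-30c-2*, without a partner of exactly their name, were paired with the guide of their precursor. That guide was miR-30c for miR-30c-2* and miR-24 for both miR-24 stars, so miR-24 was counted again for its other copy. In the first set the star had fewer A or U among its first 4 bases than the partner in 18 pairs, as many in 5 and more in 4. In the second set it had fewer in 3, as many in 5 and more in 4. With the first 3 bases the star had fewer in 17 of 27 and 2 of 12 pairs, and with the first 5 in 16 of 27 and 8 of 12, so the contrast between the sets depends on the window. The median GC content of the stars was 50% in both sets, against 40.9% and 45.5% for the partners. In the 3 pairs with the star alone above background, the partner began with C (miR-17, miR-191) or G (miR-674), and none began with U.

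How many stars an array detected moved with its brightness. At day 1 control arrays had 4 to 11 stars above background (median 8.5) and exposed arrays 10 to 15 (median 12.5). At day 3 the ranges were 9 to 14 (median 11.5) and 6 to 11 (median 11), and at day 28 they were 9 to 14 (median 13.5) and 9 to 13 (median 10). The median 75th percentile of signal stood in the same order: 365 against 666 units at day 1, 635 against 625 at day 3, and 985 against 481 at day 28, control first. The array with the fewest stars, 4, was the dimmest, at 187 units. The higher counts thus lay with exposed lungs at day 1 and with controls at day 28, and the part of brightness in these differences was not tested. Partners counted the same way had a median of 44.5 on control arrays and 50 on exposed arrays of day 1. These medians were 48 and 49.5 after 3 days, and 53 and 46 after 28 days.

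**Figure D2:**
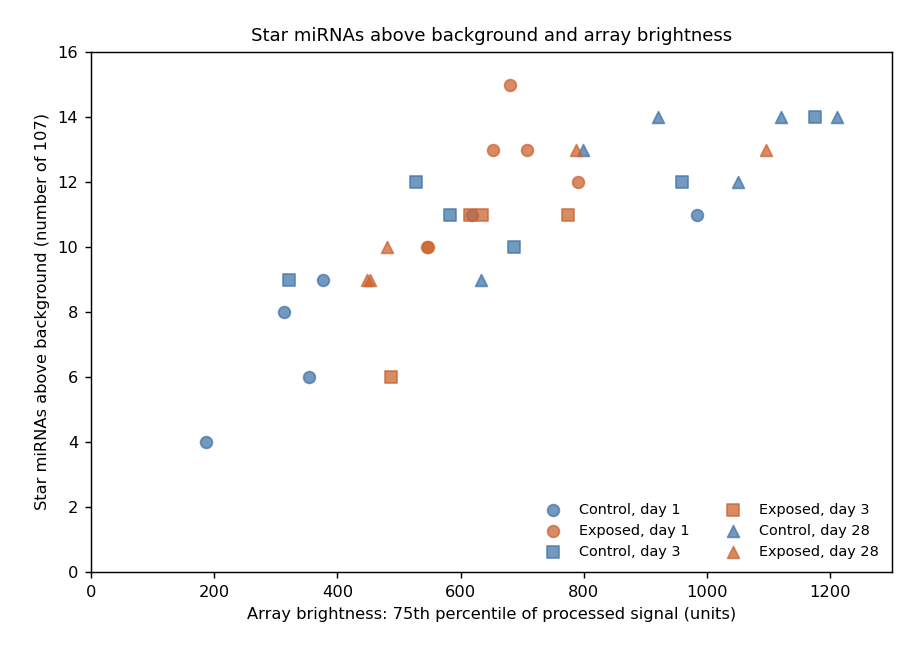
Number of the 107 star miRNAs above background on each of 33 arrays (vertical axis) against the 75th percentile of the array's processed signal before scaling (horizontal axis), blue for control and orange for exposed lungs. The array at 187 units had 4 stars above background and the array with the most, 15, lay among the exposed arrays of day 1.

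For testing, a miRNA had to be above background on 4 or more arrays of some group, and 13 stars, 12.1% of the 107, met this. Among partners this held for 52 of 97 (53.6%). Among all mouse miRNAs whose name does not end in an asterisk it held for 153 of 496 (30.8%), both arms of arm-named miRNAs included. In 8 pairs both arms were tested, in 44 the partner only, in 2 (miR-17* and miR-674*) the star only and in 43 neither. Signals below are log2 values after each array was scaled to the same 75th percentile. They can be compared between arrays for 1 miRNA but not between miRNAs, since each has its own probes.

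Exposure changed no star past the threshold on any day. Limma called 0 of the 13 tested stars at day 1, at day 3 and at day 28 (adjusted p under 0.05 over all 172 miRNAs tested), and 0% of the 172 were called on each day. At an unadjusted p under 0.05 there was 1 star of 16 miRNAs at day 1, 0 of 2 at day 3 and 0 of 13 at day 28. The smallest adjusted p of a star was 0.485, 0.996 and 0.864. For the effect averaged over the 3 days limma called 0 stars, where 0.581% of the 172 were called. At an unadjusted p under 0.05 there were 0 stars of 17 miRNAs for this average. The exposed and control values of 0 stars were fully separated on any day, where 0.581%, 0% and 1.74% of all tested miRNAs were at days 1, 3 and 28. The median log2 change of the stars was -0.15 at day 1, with 3 higher and 10 lower, beside -0.097 over all 172. It was 0.0065 at day 3, with 8 higher and 5 lower, beside -0.036, and -0.035 at day 28, with 5 higher and 8 lower, beside -0.034. The direction at day 1 turned with the setting. The star median was 0.032 with a percentile over all probes and 0.51 with no scaling, beside all-miRNA medians of 0.089 and 0.56. With the scanner's total gene signal per miRNA in place of the brightest probe it was 0.20, beside 0.058. At day 3 it was -0.035 with a percentile over all probes and -0.067 with no scaling, beside -0.078 and -0.11 over all miRNAs, and at day 28 it was 0.38 with normexp background correction, beside 0.28 over all miRNAs.

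**Figure D3:**
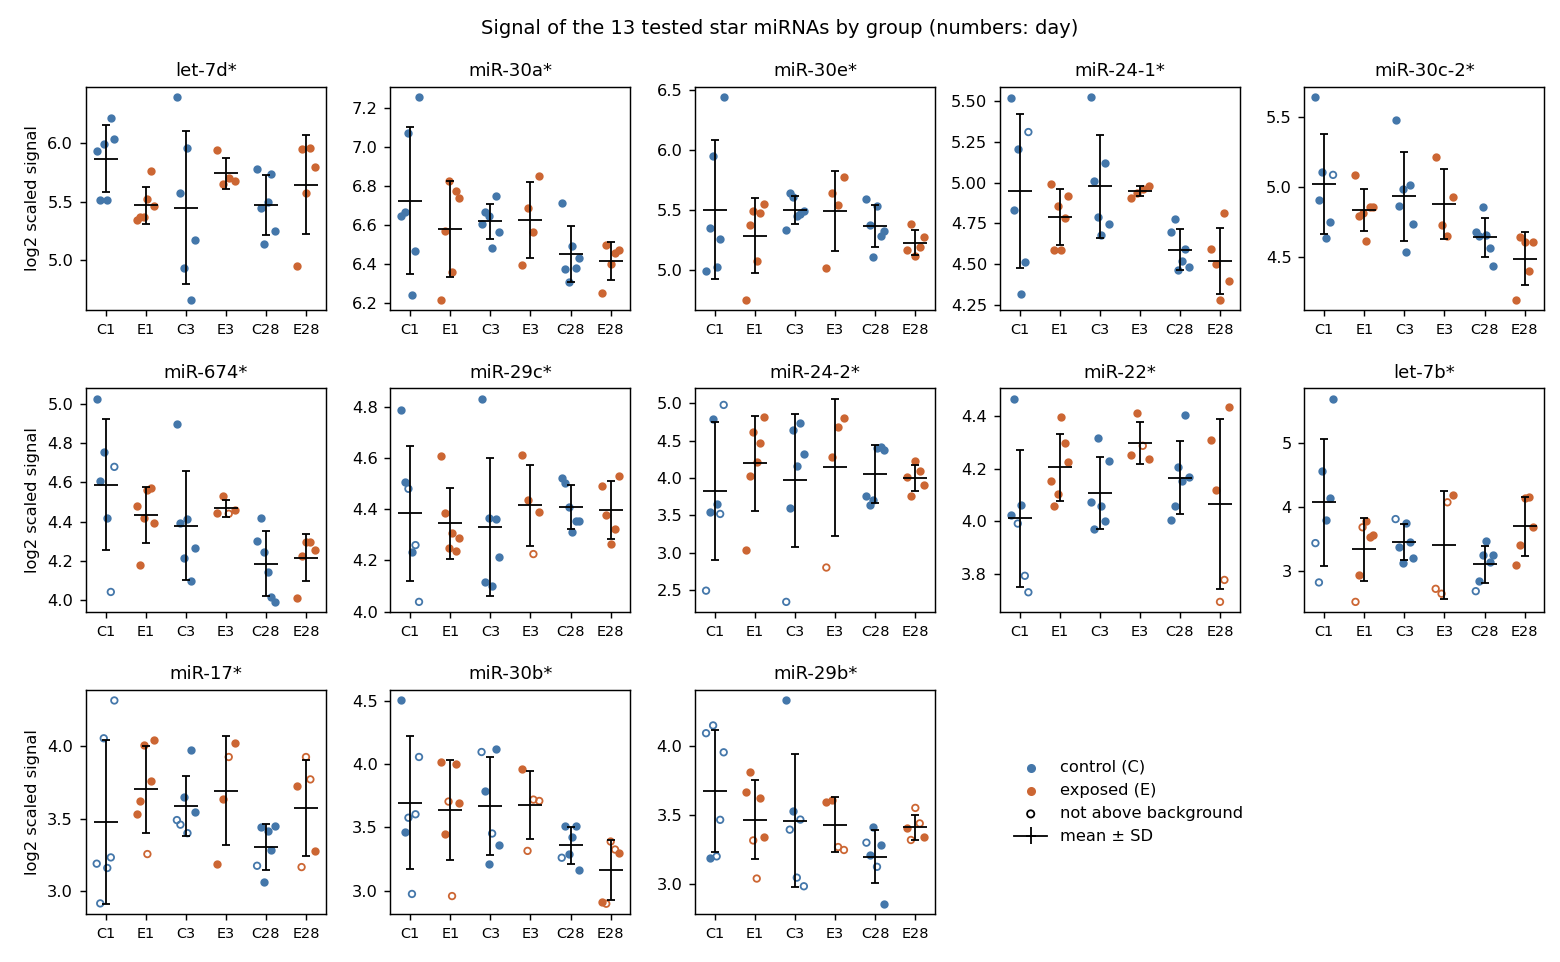
Log2 scaled signal of the 13 tested stars on each array (vertical axes, 1 panel per miRNA, each with its own range) for control (C, blue) and exposed (E, orange) lungs at days 1, 3 and 28, with mean ± SD; open circles are arrays not above background. Control and exposed points overlap on every day in every panel.

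The star of let-7b, a brake on growth in its guide form, had the largest fitted changes. At day 1 its log2 signal in control lungs ran from 2.82 to 5.70 (median 3.97) and in exposed lungs from 2.52 to 3.78 (median 3.55). At day 3 it ran from 3.13 to 3.81 in controls (median 3.41) and was 2.72, 2.64, 4.08 and 4.19 in the exposed lungs. At day 28 it ran from 2.68 to 3.47 in controls (median 3.19) and was 3.09, 3.41, 4.14, 4.16 and 3.70 in the exposed lungs. The groups overlapped on each day, and at day 28 3 of 5 exposed lungs lay above the highest control. The change was -0.74 ± 0.34 (SE, as for the changes that follow) at day 1 (limma, unadjusted p = 0.0383, adjusted p = 0.485), lower in 5 of 6 pairs on the same slide. It was -0.046 ± 0.38 at day 3 and 0.60 ± 0.36 at day 28 (adjusted p = 0.864), higher in 5 of 5 pairs, by 0.41 to 0.89. The difference between days 28 and 1 was 1.33 ± 0.49 (limma, unadjusted p = 0.0112, adjusted p = 0.489). Limma called 0% of the 172 miRNAs for this difference, where 1 star of 13 miRNAs had an unadjusted p under 0.05.

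The day 1 value of let-7b* rested in part on 1 array. Control replicate 27, at 5.70, was the dimmest of the 33 arrays, and without it the change was -0.41 (adjusted p = 0.457). Without slide 1 it was -0.70. In the authors' deposited table it was -0.014, beside -0.013 for the median of all miRNAs. Without scaling it was -0.078 beside an all-miRNA median of 0.56. Scaling moves all miRNAs of an array alike, so the difference of -0.64 is the same with and without it by construction. Against the all-miRNA median the change was -0.19 with normexp correction, -0.26 with the total gene signal and -0.72 with quantile normalization. The 48 alternatives run gave adjusted p from 0.0876 to 0.892. All 4 probes of let-7b* were lower at day 1, by 0.29 to 0.74, and the probe used had the largest of these changes. At day 3 the probe used was lower by 0.046 and the others were higher by 0.20 to 0.28. All were higher at day 28, by 0.60 to 0.76. At day 28 the change was 0.11 in the authors' deposited table. Against the all-miRNA median it was 0.63 with and without scaling, again the same by construction. That difference was 0.29 with normexp correction, 0.48 with quantile normalization and 1.25 with the total gene signal.

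let-7d*, on all arrays above background, ran from 5.52 to 6.21 in controls (median 5.96) and from 5.35 to 5.76 in exposed lungs (median 5.42) at day 1. At day 3 controls ran from 4.66 to 6.40 (median 5.38) and the 4 exposed lungs from 5.65 to 5.94, inside the control range. At day 28 controls ran from 5.14 to 5.78 (median 5.47) and the 5 exposed lungs from 4.95 to 5.96 (median 5.80). The changes were -0.39 ± 0.21, 0.29 ± 0.23 and 0.17 ± 0.22 at days 1, 3 and 28 (limma adjusted p = 0.487, 0.996 and 0.971). Against the median change of all miRNAs they were -0.30 at day 1 and 0.21 at day 28, and these differences were the same with no scaling and with a percentile over all probes, which move all miRNAs of an array alike. In the authors' deposited table the day 1 change was 0.063, or 0.076 against all miRNAs. The difference between days 3 and 1 was 0.69 ± 0.31 (unadjusted p = 0.0356, limma adjusted p = 0.990), the 1 star of 4 miRNAs at an unadjusted p under 0.05, where limma called 0% of the 172. Between days 28 and 3 limma called 0 stars of the 0% of miRNAs called, with 0 stars of 3 at an unadjusted p under 0.05.

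The miR-30 stars, from a family abundant in lung and in many other tissues, had small differences against their SE. miR-30a* ran from 6.24 to 7.26 in controls and from 6.21 to 6.82 in exposed lungs at day 1, with medians of 6.65 in both. Its changes were -0.14 ± 0.13, 0.0065 ± 0.14 and -0.035 ± 0.13 on the 3 days (limma adjusted p = 0.632, 0.996 and 0.986). For miR-30e*, which differs from it at 1 base, they were -0.22 ± 0.18, -0.0071 ± 0.20 and -0.14 ± 0.19. For miR-30c-2* they were -0.19 ± 0.15, -0.056 ± 0.16 and -0.15 ± 0.15, with 4 of 5 slide pairs lower at day 28. For miR-30b* they were -0.060 ± 0.21, 0.0030 ± 0.24 and -0.19 ± 0.22. The groups of these 4 stars overlapped on each day.

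The stars that stood without a detected partner were miR-17* and miR-674*. At day 1 miR-17* was above background on 0 of 6 control and 5 of 6 exposed arrays. Its log2 signal still overlapped, from 2.91 to 4.31 in controls (median 3.21) and from 3.25 to 4.04 in exposed lungs (median 3.69). The highest control value came from the dimmest array, where it was not above background. Set against the background bound of the control arrays the exposed mean was lower, at 3.70 against 4.04, so no fold is given, and the fitted change was 0.23 ± 0.21 (limma adjusted p = 0.632). With the scanner's total gene signal in place of the brightest probe the change was 1.70 (limma adjusted p = 0.0252). That is past the threshold, as were 3 of the 172 miRNAs. Under normexp correction it was -0.44, beside a median of -0.36 over all miRNAs. The array counts were 3 of 6 control and 3 of 4 exposed at day 3, and 5 of 6 and 2 of 5 at day 28, with changes of 0.11 ± 0.23 and 0.27 ± 0.22. The counts favoured the brighter group at days 1 and 28.

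miR-674* was above background on 4 of 6 control and 6 of 6 exposed arrays at day 1. Its log2 signal ran from 4.04 to 5.03 (median 4.64) and from 4.18 to 4.57 (median 4.45). At day 3 controls ran from 4.10 to 4.90 (median 4.33), and the exposed lungs were at 4.44, 4.53, 4.44 and 4.46. At day 28 controls ran from 3.99 to 4.42 (median 4.20), and the exposed lungs were at 4.01, 4.22, 4.30, 4.30 and 4.26. The exposed values lay inside the control range on all 3 days, and the changes were -0.15 ± 0.13, 0.089 ± 0.15 and 0.030 ± 0.14.

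The miR-24 stars are products of different loci with a common guide. miR-24-1* ran from 4.28 to 5.53 over all arrays, with log2 changes of -0.16 ± 0.16, -0.031 ± 0.18 and -0.072 ± 0.17 on the 3 days. miR-24-2* ran from 2.34 to 4.98 and had the widest spread within groups of the 13 stars, a residual SD of 0.71. Its changes were 0.37 ± 0.39, 0.18 ± 0.44 and -0.054 ± 0.41, and it was higher in 4 of 4 slide pairs at day 3, by 0.045 to 0.69. Its highest value, in control replicate 27 of day 1, was not above background there. miR-22* ran from 3.73 to 4.47 in controls (median 4.01) and from 4.06 to 4.40 in exposed lungs (median 4.19) at day 1, above background on 3 and 6 of 6 arrays. Its residual SD was 0.20, and its log2 changes were 0.19 ± 0.12, 0.19 ± 0.14 and -0.099 ± 0.13, higher in 5 of 6 slide pairs at day 1. miR-29c* had the narrowest spread, 0.19, and log2 changes of -0.039 ± 0.12, 0.085 ± 0.13 and -0.012 ± 0.12. miR-29b* had log2 changes of -0.21 ± 0.20, -0.028 ± 0.22 and 0.21 ± 0.21 and was higher in 5 of 5 slide pairs at day 28. The adjusted p of these 5 stars was 0.511 or more on all 3 days by limma.

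The next question was whether a star followed its partner. In the 8 pairs with both arms tested, the difference of the 2 log2 signals on each array was fitted together with the other arm pairs, 16 in all. Limma called 0 of the 8 at days 1, 3 and 28, where 0% of the 16 were called each day. At an unadjusted p under 0.05 there were 2 star pairs of 3 arm pairs at day 1, 0 of 0 at day 3 and 0 of 1 at day 28. At day 1 miR-29c* ran from 4.04 to 4.79 in controls (median 4.37) and from 4.24 to 4.61 in exposed lungs (median 4.30), and miR-29c from 8.50 to 9.09 (median 8.83) and from 8.76 to 9.30 (median 8.99). Both arms overlapped between the groups. The log2 change was -0.039 for the star and 0.21 for miR-29c, a difference of -0.25 ± 0.11 (unadjusted p = 0.0260, limma adjusted p = 0.267), which turned to 0.59 with the total gene signal. miR-29b* ran from 3.19 to 4.15 in controls (median 3.71) and from 3.04 to 3.81 in exposed lungs (median 3.48), above background on 1 and 4 of 6 arrays. The log2 change was -0.21 for the star and 0.21 for miR-29b, a difference of -0.41 ± 0.20 (unadjusted p = 0.050, limma adjusted p = 0.267). At day 28 let-7b itself ran from 10.98 to 11.43 in controls (median 11.34) and from 10.75 to 11.35 in exposed lungs (median 11.08), with the groups overlapping. The log2 change there was 0.60 for let-7b* and -0.19 for let-7b, a difference of 0.78 ± 0.39 (limma adjusted p = 0.426). Between days 28 and 1 that difference itself differed by 1.30 ± 0.54 (unadjusted p = 0.0220, limma adjusted p = 0.176), with 0% of 16 called. The star differences not given above lay between -0.52 and 0.35 at day 1 and between -0.23 and 0.30 at day 28, and all 8 lay between -0.16 and 0.39 at day 3.

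**Figure D4:**
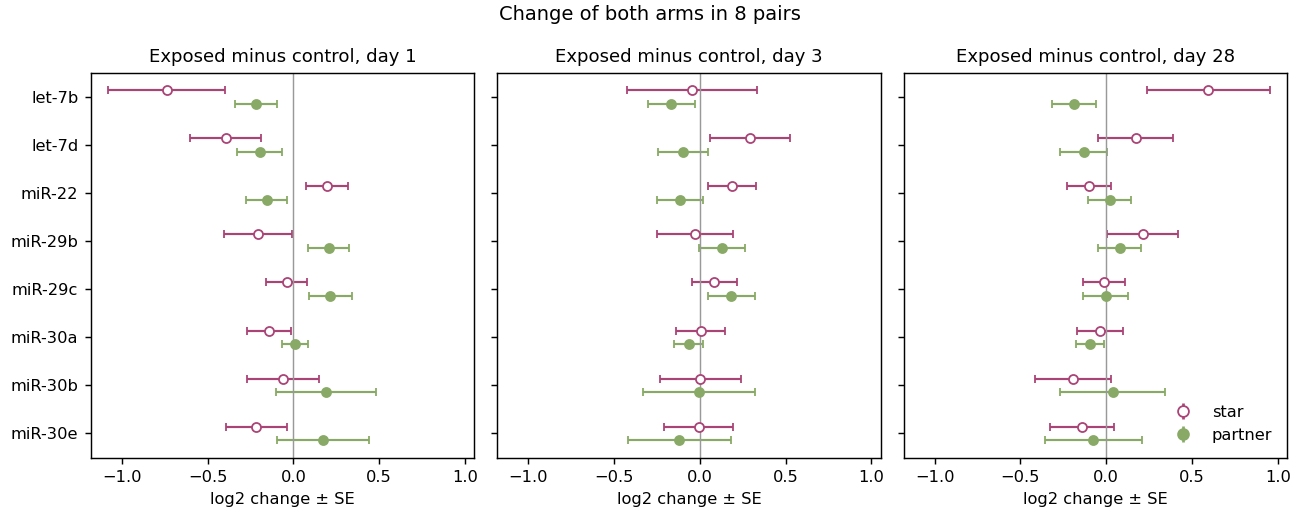
Log2 change, exposed minus control, with its SE for the star (open circles) and the partner (filled circles) of 8 pairs at days 1, 3 and 28 (horizontal axes; 0 is no change). Of the 24 star changes, let-7b* shows the lowest, -0.74 at day 1, and the highest, 0.60 at day 28, while let-7b lies at -0.22, -0.17 and -0.19.

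Within groups, the stars did not all vary more than their partners. The residual SD over 33 arrays was 0.61 for let-7b* and 0.21 for let-7b, 0.37 and 0.23 for let-7d, and 0.22 and 0.12 for miR-30a. It was 0.36 and 0.53 for miR-30b, 0.32 and 0.48 for miR-30e, 0.20 and 0.21 for miR-22, 0.33 and 0.21 for miR-29b, and 0.19 and 0.21 for miR-29c, star first. The difference of both arms had a smaller SD than either arm for miR-29c (0.18), and for miR-22 a larger one (0.33).

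Among control lungs the stars were also set against the day. An F test over the 3 control days in limma called 0 of the 13 stars, where 1.16% of 172 miRNAs were called, and 4 stars of 31 miRNAs had an unadjusted p under 0.05. The stars were miR-674* (adjusted p = 0.170), let-7b* (0.207), miR-24-1* (0.221) and miR-30c-2* (0.221). Each had its lowest control mean at day 28: miR-674* averaged 4.59 ± 0.33 (SD, n = 6), 4.38 ± 0.28 and 4.19 ± 0.17 at days 1, 3 and 28, and let-7b* 4.08 ± 0.99, 3.45 ± 0.28 and 3.11 ± 0.29. miR-24-1* averaged 4.95 ± 0.47, 4.98 ± 0.32 and 4.59 ± 0.12, and miR-30c-2* 5.02 ± 0.36, 4.93 ± 0.32 and 4.64 ± 0.14. The control arrays of day 28 were the brightest, and the part of brightness here was not tested. Without control replicate 24 of day 1, miR-674* was called, 1 of 9 miRNAs.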

How the data were processed

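The members and the miRNA lists were chosen with earlier results of these data known. Per the labels' protocols, small-RNA-enriched total RNA (miRvana kit) was labelled with Cy3 for 1-colour Agilent miRNA arrays. Spot intensity in the deposited files is on a linear scale, extracted by the authors with Feature Extraction 10.7.3.1 and background-subtracted, per the file headers. The authors' deposited table of log2 values served only as an alternative, since no source used here states how it was made or centred.

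Control spots and flagged spots (1.65% to 2.88% per array) were left out, and 0 spots used were saturated. The mean processed signal per probe was scaled per array to a common 75th percentile, taken over 156 probes that every array detected, floored at 1 and taken to log2. The brightest probe stood for a miRNA. It was tested when above background on at least 4 arrays of 1 group, which left 172 miRNAs, 13 of them stars. All 13, and the 3 stars detected too rarely to test, are named. Group means of the 6 groups were fitted in limma 3.58.1 (R 4.3.3, lmFit and eBayes with trend), two-sided, with Benjamini-Hochberg adjustment over all 172, and errors after ± are SE unless given as SD. The fit was tested on simulated data. Arm differences were fitted over 16 pairs. A fold against background used the lowest signal above it on each array, or the probe's own where higher.

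The alternatives were other scalings and background correction (normexp with an offset of 50, on the median spot signal in place of the mean). Others were the mean over probes, the scanner's total gene signal per miRNA, floor, filter, slide blocks and leaving out arrays. The gene-detected flag was an alternative chosen after seeing the data. Replicates are mice only as far as the series design says so. The number of arrays limits the precision. Old star names were matched to current arm names by hand.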

Additional observations from a re-analysis of the deposited data

Results flagged for a closer look

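In 84 groups of 4 to 6 arrays (13 stars and the number of stars above background, in 6 groups), 3 held an array whose gap to its nearest neighbour was large against the group's range, and chance gives about 1 in 20. miR-29c* was at a log2 signal of 4.83 in control replicate 2 of day 3, with the next highest at 4.36. That array lies on slide 1. miR-674* was at 4.01 in exposed replicate 8 of day 28, with the next lowest at 4.22. Exposed replicate 16 of day 3 had 6 stars above background, where the other 3 arrays of its group had 11 each. Its brightness, 488 units at the 75th percentile, was the lowest of that group.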

How the results depend on the processing

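Each replicate number occurs once in the series, so the numbers pair no arrays. Control and exposed arrays of a day share slides. With the slide as a fixed or a random block limma called 0 stars and 0 star pairs on any day. The smallest star adjusted p was 0.151 and 0.173, both at day 1. With the fixed block 0 of all 172 miRNAs were called on any day, and 1 of 16 arm pairs at day 1. The random block gave 2 of 172 miRNAs at day 1, 0 at days 3 and 28, and 0 of 16 arm pairs at day 1. Under normexp correction 13 stars of 120 miRNAs called differed between control days and the star median change was -0.46 at day 1 and 0.38 at day 28. With total gene signal 1 star (miR-17*) of 3 miRNAs was called at day 1 and the median was 0.20. With a percentile over all probes the day 28 median was -0.28. With no scaling 9 stars of 117 miRNAs called differed between control days and the medians were 0.51 and -0.65 at days 1 and 28. Against the median of all miRNAs in the same setting the star median lay from -0.098 to 0.14 at day 1, 0.022 to 0.066 at day 3 and -0.10 to 0.11 at day 28. With no filter 84 stars of 474 miRNAs entered, and 2 of 7 miRNAs called at day 1 were stars (miR-21* and miR-382*), 2 of 12 over control days (miR-382* and miR-483*) and 1 of 1 arm pairs called at day 1 (miR-744*). All 4 were above background on 0 arrays. Only miRNAs on all arrays left 3 stars. Leaving out 1 array gave 0 to 1 stars over control days, where 0 to 9 of all tested miRNAs were called. The causes of these shifts were not tested. Of 3042 values of single stars and pairs under alternatives, 2972 kept their side of the threshold within 1 SD, 69 moved further, 1 was newly called and 0 were lost, and 180 values below the threshold turned their sign. Depth is not known for arrays, and 91 stars gave no signal above background, so a change in them was not detectable here.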

Other observations

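Stars that did not pass the filter still gave values. miR-21*, the passenger of an inflammation-induced miRNA, was at the floor of 1 unit on 6 of 6 control arrays of day 1 and on 1 of 6 exposed arrays, where its highest scaled signal was 2.22 units. It was at the floor on all arrays of day 3, control and exposed, and on all 6 controls of day 28. Of the exposed arrays of day 28 it was at the floor on 4 of 5, with a highest signal of 2.72 units. The lowest signal above background on any array was 5.76 units, so these values lie below what an array could call, and no fold is given. miR-382*, from the Dlk1-Dio3 cluster, went the other way at day 1, averaging 1.26 ± 0.77 (SD, n = 6, log2 signal) in control lungs against 0.15 ± 0.28 after exposure. miR-744* averaged 1.70 ± 0.64 against 0.74 ± 0.56 on the same scale and day.

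Of the 13 tested stars, 12 (92.3%) had their highest scaled value on 1 of 3 control arrays, replicates 1, 2 and 27, singled out after their values were seen. Of the 159 other tested miRNAs 91 (57.2%) did. Picking arrays by their values raises such shares, and the contrast between them was not tested. The 75th percentiles of these arrays were 377, 321 and 187 units, and replicates 1 and 2 are on slide 1. Control replicates 13 and 24, also dim at 313 and 353 units, held the highest value of 0 stars. The part of brightness here was not tested.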
